A study of Mus musculus with 7 samples.

Results

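Chemokine receptors were described in the transcriptomes of mature white adipocytes from epididymal fat. The 9 genes were chosen by symbol, and they are 9 of the 57010 gene identifiers in the count table and 9 of the 24 genes of the chemokine receptor family examined here. The typical receptors were Ccr1, Ccr2, Ccr7, Cxcr2, Cxcr4 and Cx3cr1, and the atypical receptors were Ccrl2, Ackr1 and Ackr3. RNA came from 3 FFA2 fl/fl control mice and 4 Adipoq-F2-KO mice. By the labels all were littermate males on standard chow, 20 weeks old and co-housed, and both genotypes carried the floxed FFA2 alleles. Adipoq-F2-KO mice also carried an Adiponectin-Cre transgene, whose Cre follows the adiponectin promoter and so is expected in adipocytes. Adipocytes were freed by collagenase digestion, and poly-A RNA was sequenced as read pairs. The question was whether receptor transcripts differed between genotypes at baseline, without a dietary challenge.

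Chemokines are small secreted proteins that direct the movement of leukocytes, and their typical receptors signal through inhibitory G proteins. Atypical receptors bind chemokines or related ligands without that G protein signal, and they remove, transport or present the ligand. In fat, Ccr2 is known as the receptor by which blood monocytes follow Ccl2 into the tissue. Most typical receptors are transcribed by leukocytes, whereas Ackr1 marks small veins and red cell precursors, and Ackr3 is found on endothelial and stromal cells.

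Ackr3, Ccrl2, Ccr1 and Ccr2 were higher in all 4 knockout libraries than in the 3 controls, without overlap, and of these Ackr3 alone passed the test across all genes with edgeR. Their mean levels were 1.54, 1.80, 2.71 and 2.61 times those of the controls, in the same order. Cxcr4 and Ackr1 had higher means in Adipoq-F2-KO with overlapping libraries. Ccr7 differed more within each genotype than between them, and Cxcr2 and Cx3cr1 were at or near 0.

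The promoters of the 4 receptors whose libraries did not overlap are shown, because all 4 were higher in the knockouts. Each window holds 250 bases before an annotated start and the 50 bases from that start on. The windows are from RefSeq on GRCm38.p6, read 5′ to 3′ on the strand of the gene. Capitals mark matches to the motifs searched.
Ackr3, chr1:90203730-90204029, plus strand: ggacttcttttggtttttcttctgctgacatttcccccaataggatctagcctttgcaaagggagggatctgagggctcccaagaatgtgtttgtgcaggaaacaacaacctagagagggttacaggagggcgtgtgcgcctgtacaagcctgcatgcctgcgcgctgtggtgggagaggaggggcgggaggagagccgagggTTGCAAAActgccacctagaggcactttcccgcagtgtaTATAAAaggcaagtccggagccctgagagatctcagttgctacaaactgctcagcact
Ccrl2, chr9:111057469-111057768, minus strand: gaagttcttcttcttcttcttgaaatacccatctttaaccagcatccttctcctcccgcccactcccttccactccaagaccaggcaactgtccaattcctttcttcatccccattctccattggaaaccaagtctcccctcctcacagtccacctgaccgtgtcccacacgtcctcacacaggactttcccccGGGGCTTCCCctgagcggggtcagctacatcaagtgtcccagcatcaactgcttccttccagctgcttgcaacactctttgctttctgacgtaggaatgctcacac
Ccr1, chr9:123968643-123968942, minus strand: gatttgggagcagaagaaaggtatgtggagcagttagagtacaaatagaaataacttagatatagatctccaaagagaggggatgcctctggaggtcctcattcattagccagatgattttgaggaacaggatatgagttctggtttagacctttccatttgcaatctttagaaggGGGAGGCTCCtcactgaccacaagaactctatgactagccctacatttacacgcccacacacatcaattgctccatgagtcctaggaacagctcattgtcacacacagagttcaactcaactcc
Ccr2, chr9:124101933-124102232, plus strand: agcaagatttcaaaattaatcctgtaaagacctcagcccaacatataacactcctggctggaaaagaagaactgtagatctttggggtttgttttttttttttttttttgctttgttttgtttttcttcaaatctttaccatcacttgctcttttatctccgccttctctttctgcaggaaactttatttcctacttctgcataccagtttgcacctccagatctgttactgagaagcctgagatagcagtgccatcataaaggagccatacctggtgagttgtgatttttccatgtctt

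Of the 9 receptors, 8 had a promoter in the RefSeq table, and Ccr7 had none there. The motifs were AP-1 (TGANTCA), PU.1 (GAGGAAGT), C/EBP (TTGCNNAA), the TATA box (TATAAA) and the consensus of NF-kB, each searched on both strands. The Ackr3 window held a C/EBP match from 47 to 40 bases before the start and the TATA box letters from 8 to 3 bases before it. The Ccrl2 window held an NF-kB match from 56 to 47 bases before the start, which reads as a match on both strands. That window belongs to the farthest upstream of 3 annotated starts of Ccrl2, and the windows of the other starts held no match. In the Ccr1 window the NF-kB consensus matched from 74 to 65 bases before the start, and the Ccr2 window held none of the 5 motifs. The Ccr2 window lies wholly inside the RefSeq gene, which begins at 124101918 on GRCm38, so sequence upstream of that gene was not searched. Among all 32851 promoter windows, 8.46% held the NF-kB consensus, 10.8% the C/EBP letters, 13.6% the TATA box, 7.81% AP-1 and 3.2% PU.1. In the Cxcr4 window a TATA box match on the gene's strand, from 30 to 25 bases before the start, overlapped one on the other strand, and no other matches to different sites overlapped. AP-1 and PU.1 letters were found in none of the 8 receptors' windows.

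Total counts lay between 30478997 and 39992605 per library, and 0 counts in a library allows at most 0.15 to 0.197 CPM (counts scaled to a common library total), for counting error alone. The targeted gene Ffar2, the receptor for short-chain fatty acids, had 1094 to 1404 counts in FFA2 fl/fl and 38 to 76 in Adipoq-F2-KO, as labelled. Adipoq, the defining adipocyte transcript, had 3605 ± 155 normalized CPM (SD, n = 3) in controls and 3084 ± 519 (SD, n = 4) in knockouts, so the libraries held adipocyte RNA. Of 11 adipocyte markers 10 had a log2 fold change below 0, 5 of them at an unadjusted p under 0.05, and edgeR called 0 and DESeq2 2. Pparg was above 0 at such a p. Of 17039 tested genes, 8443 were below 0, and 3047 had an unadjusted p under 0.05 in either direction. Among all genes edgeR called 37 lower, and DESeq2 called 253 lower of 14704. Transcripts of other cells were also present. Summed B cell markers were highest in FFA2 fl/fl library 2 and Adipoq-F2-KO library 3, and germ cell transcripts in Adipoq-F2-KO library 2. In such bulk libraries, fewer cells of a type and less RNA per cell cannot be told apart. Mitochondrial transcripts took 4.41% to 5.77% of counts in the controls and 6.61% to 10.3% in the knockouts, without overlap, and their part in the receptor values was tested only by leaving them out of the library sizes, with which edgeR again called Ackr3 alone. Which of the mice shared a litter or cage is not given in the labels.

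Per kilobase of exon and averaged over the 7 libraries, Ackr3 had 9.10 ± 2.24 normalized CPM per kilobase (SD, n = 7). It was followed by Cxcr4 at 6.70 ± 1.78, Ccrl2 at 3.65 ± 1.21 and Ackr1 at 2.89 ± 1.14 on the same scale. Ccr7 had 1.04 ± 0.937, Ccr1 0.583 ± 0.317 and Ccr2 0.342 ± 0.193 normalized CPM per kilobase. Ackr3 exceeded Cxcr4, Cxcr4 exceeded Ccrl2 and Ccr1 exceeded Ccr2 within 7 of 7 libraries. Ccrl2 exceeded Ackr1 in 5 of 7 and Ccr7 exceeded Ccr1 in 3 of 7, so the order of these neighbours was not fixed. Ccr2 lay above Cx3cr1 in 7 of 7 libraries with no overlap of their ranges, and Cx3cr1 and Cxcr2 at the bottom could not be ordered. Atypical receptors held 3 of the 4 highest levels.

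**Figure D1:**
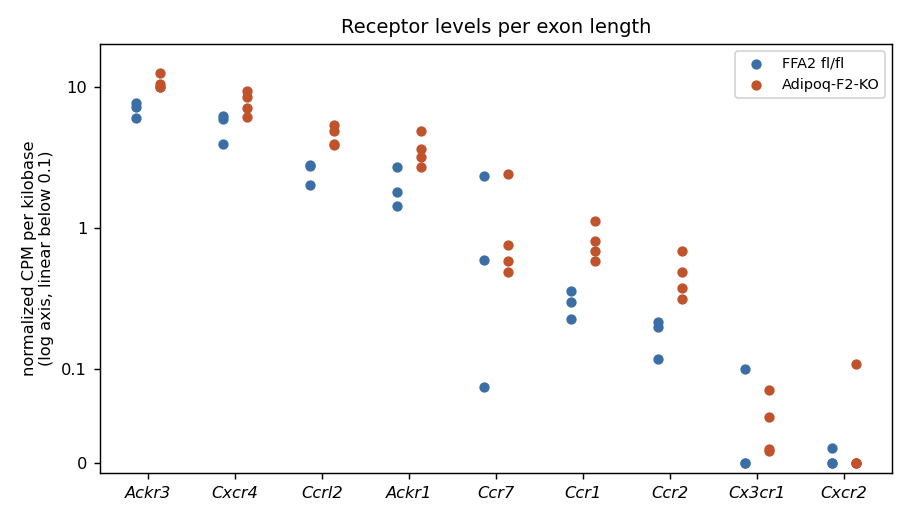
Normalized CPM per kilobase of exon for each receptor in each library, on an axis that is logarithmic above 0.1 and linear below; points are libraries, coloured by genotype, and receptors are in order of their mean. Ackr3 and Cxcr4 lead, and Cx3cr1 and Cxcr2 lie at or near 0 in both genotypes.

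Of the 9 receptors, 7 passed the filter on low counts and were tested. Of the 7, 6 lay above the CPM cutoff of the filter (0.274 CPM) in all 7 libraries, and Ccr7 was below it in FFA2 fl/fl library 1. With edgeR's quasi-likelihood test 1 of the 9 receptors was called higher in Adipoq-F2-KO and 0 lower, against 0.798% of all tested genes called higher. By DESeq2, which the submitters' processing notes name, 4 were called higher, against 5.03% of genes. At an unadjusted p under 0.05 from edgeR there were 6, against 10.5% of genes. The genotypes did not overlap, with Adipoq-F2-KO higher, for 4 receptors, against 8.86% of tested genes. All 7 tested receptors had a log2 fold change above 0, with a median of 0.84, and 8596 of 17039 tested genes did. Without the libraries that were richest in B cell markers (FFA2 fl/fl 2 and Adipoq-F2-KO 3), which was tried after seeing the data, edgeR called 0 of the receptors and 5 had an unadjusted p under 0.05.

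**Figure D2:**
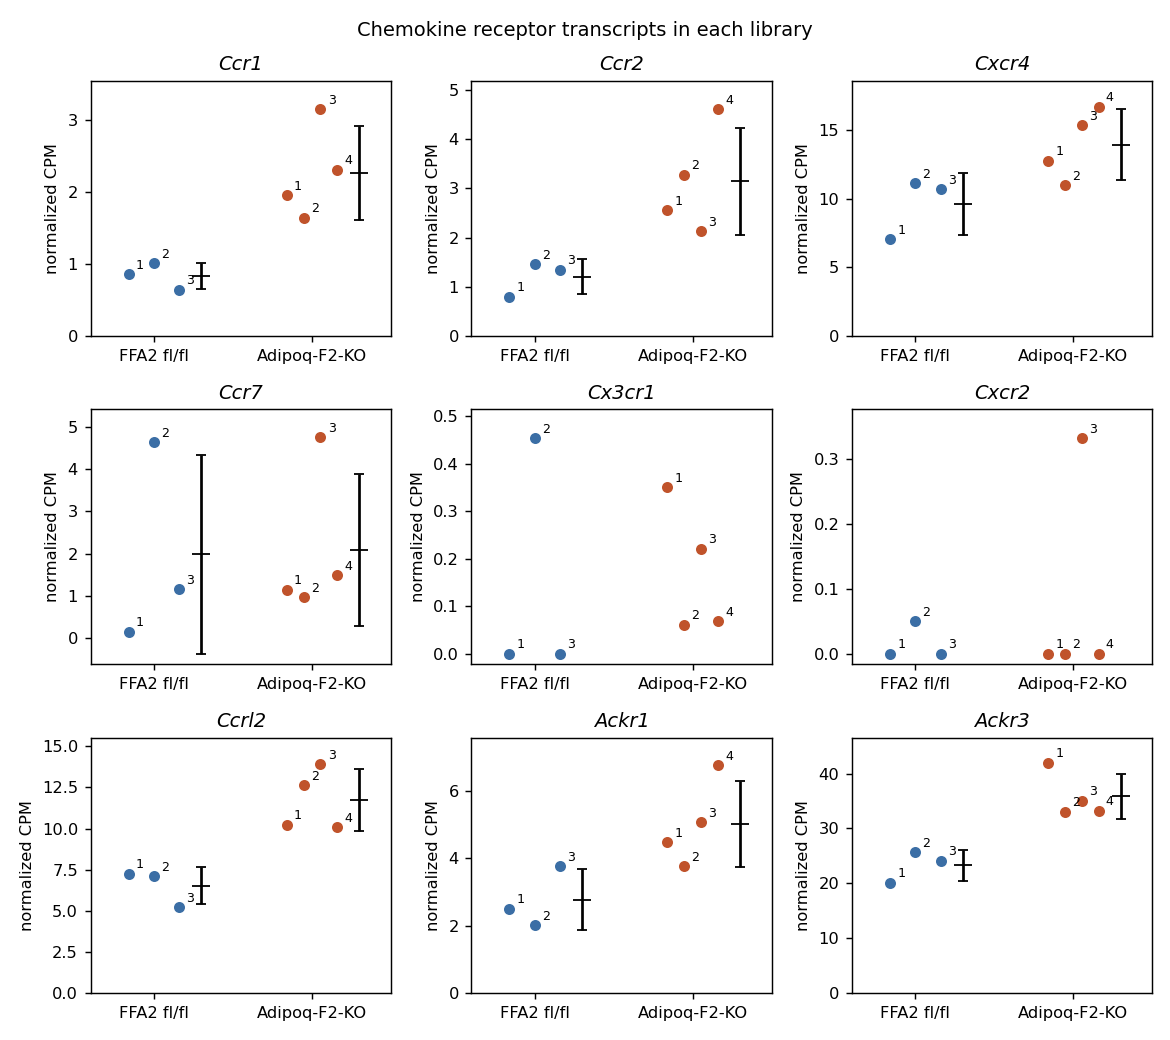
Normalized CPM of the 9 receptors in each library, with the replicate number beside each point and, for the 7 tested receptors, the mean and SD of each genotype in black. The genotypes are apart for Ccr1, Ccr2, Ccrl2 and Ackr3, and Ccr7 is high in FFA2 fl/fl library 2 and Adipoq-F2-KO library 3.

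Ackr3 (ENSMUSG00000044337) encodes an atypical receptor that takes up Cxcl12 and Cxcl11. Its gene lies on chromosome 1 from 90131702 to 90144473 in the coordinates of the deposited table. FFA2 fl/fl libraries 1 to 3 had 20.1, 25.6 and 24.1 normalized CPM, and Adipoq-F2-KO libraries 1 to 4 had 42.0, 33.0, 35.1 and 33.2. The lowest knockout library thus lay above the highest control library, and within a genotype the libraries were close together. Ackr3 rose from 23.3 ± 2.85 (SD, n = 3) to 35.8 ± 4.19 (SD, n = 4) normalized CPM, and its log2 fold change was 0.62 with a standard error of 0.13. The edgeR adjusted p was 0.0477 and the exact permutation p was 0.0286. The adjusted p was 0.000811 by DESeq2. The edgeR call was close to the threshold, and with 1 library left out in turn it held in 1 of 7 fits, that without Adipoq-F2-KO library 4, with log2 fold changes of 0.53 to 0.70 throughout. Without FFA2 fl/fl library 1, the lowest control, the adjusted p from edgeR was 0.243.

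Ccrl2 (ENSMUSG00000043953, chromosome 9 from 110883554 to 110886587) encodes an atypical receptor that binds chemerin and presents it to other cells, and it is induced in activated leukocytes and endothelium. The controls had 7.26, 7.10 and 5.21 normalized CPM and the knockouts 10.2, 12.6, 13.9 and 10.1. Every knockout library was above every control library. The means were 6.52 ± 1.14 (SD, n = 3) and 11.7 ± 1.88 (SD, n = 4), a log2 fold change of 0.84 with a standard error of 0.18. The edgeR adjusted p was 0.0546 and the exact permutation p was 0.0286. It was not called by edgeR, and was called by DESeq2 (adjusted p = 0.00181) and by edgeR with all genes of at least 1 count tested (adjusted p = 0.000996). In that unfiltered fit 3.76% of the genes were called higher. Leaving out Adipoq-F2-KO library 4 brought the adjusted p from edgeR to 0.0471.

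Ackr1 (ENSMUSG00000037872, chromosome 1 from 173159453 to 173161317), the Duffy antigen of small veins and red cells, had 2.51, 2.01 and 3.78 normalized CPM in the controls and 4.49, 3.76, 5.08 and 6.78 in the knockouts. Control library 3 and knockout library 2 were nearly level, so the genotypes overlapped. The means were 2.77 ± 0.908 (SD, n = 3) and 5.03 ± 1.29 (SD, n = 4). The log2 fold change was 0.86 with a standard error of 0.29. The edgeR adjusted p was 0.159, DESeq2 gave 0.066, and the exact permutation p was 0.0857. Of the 1405 exon bases of Ackr1, 361 also belong to Cadm3 on the same strand. How reads in shared exons were counted is not stated, so the level of Ackr1 is uncertain. The 7 erythroid markers summed to 97.5 to 223 normalized CPM in the controls and 209 to 372 in the knockouts.

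**Figure D3:**
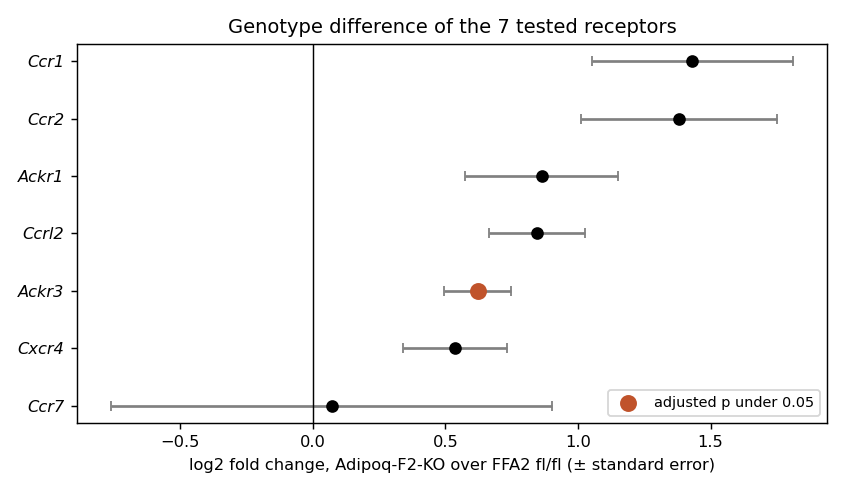
Log2 fold change of Adipoq-F2-KO over FFA2 fl/fl for the 7 tested receptors, with bars of 1 standard error on each side; the large orange point marks an edgeR adjusted p under 0.05. Ackr3 is the receptor called, Ccr1 and Ccr2 have the largest fold changes with wide bars, and the bar of Ccr7 spans 0.

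Ccr1 (ENSMUSG00000025804, chromosome 9 from 123762161 to 123768729) is a receptor of monocytes, macrophages and neutrophils for Ccl3, Ccl5 and other CC chemokines. It was rare, with 32, 40 and 22 counts in the controls and 78, 54, 114 and 68 in the knockouts. In normalized CPM this was 0.854, 1.01 and 0.644 against 1.96, 1.64, 3.15 and 2.30. The highest control library stayed below the lowest knockout library, and knockout library 3 was the highest of all. The means were 0.835 ± 0.182 (SD, n = 3) and 2.26 ± 0.651 (SD, n = 4). The log2 fold change was 1.43 with a standard error of 0.38. The edgeR adjusted p was 0.0968, DESeq2 gave 0.0107, and the exact permutation p was 0.0571.

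Ccr2 (ENSMUSG00000049103, chromosome 9 from 123901987 to 123913594), the monocyte receptor for Ccl2, had 30, 58 and 46 counts in the controls and 102, 108, 77 and 136 in the knockouts. In normalized CPM it was 0.80, 1.46 and 1.35 against 2.56, 3.28, 2.13 and 4.61. The genotypes did not overlap, and here knockout library 4 was the highest and library 3 the lowest of its genotype, whereas library 3 was the highest for Ccr1. The means were 1.20 ± 0.353 (SD, n = 3) and 3.14 ± 1.09 (SD, n = 4). The log2 fold change was 1.38 with a standard error of 0.37. The edgeR adjusted p was 0.098, DESeq2 gave 0.0112, and the exact permutation p was 0.0571. In the unfiltered edgeR fit the adjusted p of Ccr2 was 0.0283 and that of Ccr1 0.0709.

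Ccr1 and Ccr2 lie 133.3 kb apart, and Ccr1l1 and Ccr3 lie between them. Of these neighbours, Ccr1l1 had 0 counts in every library and Ccr3 had 0 to 22.

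Cxcr4 (ENSMUSG00000045382, chromosome 1 from 128515936 to 128520030), the signaling receptor for Cxcl12 on most leukocytes and on endothelial tip cells, had 7.04, 11.1 and 10.7 normalized CPM in the controls and 12.8, 10.99, 15.4 and 16.7 in the knockouts. Knockout library 2 lay just below the highest control library, and the other knockout libraries lay above it. The means were 9.63 ± 2.25 (SD, n = 3) and 13.97 ± 2.58 (SD, n = 4). The log2 fold change was 0.54 with a standard error of 0.20. The edgeR adjusted p was 0.189, DESeq2 gave 0.114, and the exact permutation p was 0.0857.

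Ccr7 (ENSMUSG00000037944, chromosome 11 from 99035022 to 99045903) guides T cells, B cells and mature dendritic cells to lymph nodes. Its counts were 6, 184 and 40 in the controls and 46, 32, 172 and 44 in the knockouts, or 0.160, 4.63 and 1.17 against 1.15, 0.971, 4.75 and 1.49 normalized CPM. FFA2 fl/fl library 2 and Adipoq-F2-KO library 3 thus stood high. On the log2 scale the genotypes differed by 0.07 with a standard error of 0.83 (edgeR adjusted p = 0.978, exact permutation test p = 0.914), which leaves a difference in either direction possible. Its sign turned in 3 of the 7 fits with 1 library left out, among them the fit without knockout library 3, at -0.73, and it was 1.66 without FFA2 fl/fl library 2. Without both high libraries, tried after seeing the data, the log2 fold change was 0.86 (edgeR adjusted p = 0.644).

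The same libraries were high in B cell transcripts. The 5 B cell markers, of which none was at 0 throughout, summed to 0.907, 23.2 and 0.937 normalized CPM in the controls and to 1.43, 3.52, 12.1 and 5.49 in the knockouts. Cxcr5, the receptor that brings B cells into lymphoid follicles, had 16, 175 and 0 counts in the controls and 8, 4, 47 and 6 in the knockouts. The 9 T cell markers summed to between 1.97 and 8.36 normalized CPM in the controls and between 2.49 and 4.97 in the knockouts, and were highest in the same library of each genotype. The part of lymphocyte RNA in the Ccr7 values was not tested.

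**Figure D4:**
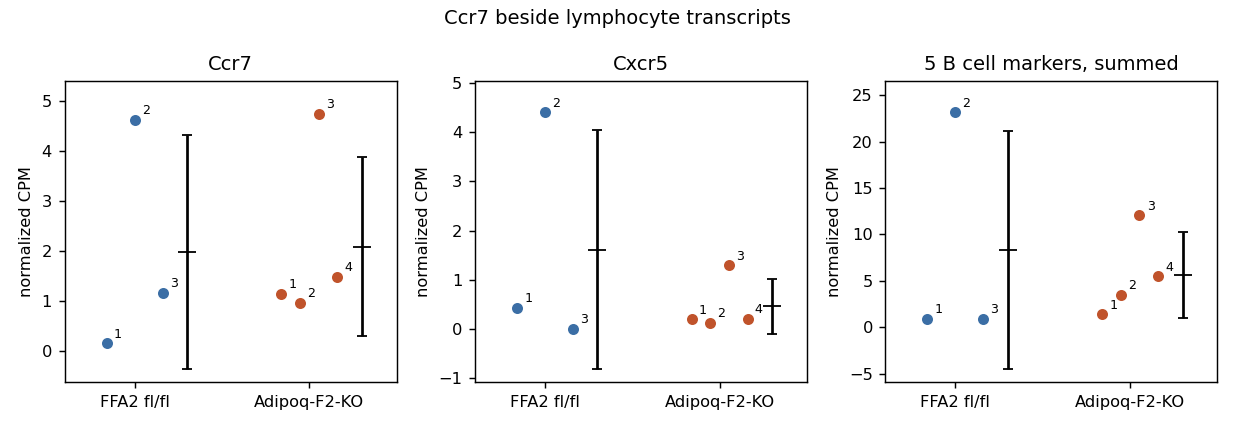
Normalized CPM of Ccr7, of Cxcr5 and of the sum of 5 B cell markers in each library, with replicate numbers beside the points and the mean and SD of each genotype in black. FFA2 fl/fl library 2 and Adipoq-F2-KO library 3 are the highest of their genotype in all 3 panels.

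Cx3cr1 (ENSMUSG00000052336, chromosome 9 from 119730682 to 119898945), the fractalkine receptor of patrolling monocytes and resident macrophages, had 0, 18 and 0 counts in the controls and 14, 2, 8 and 2 in the knockouts. Cxcr2 (ENSMUSG00000026180, chromosome 1 from 74193148 to 74200405), the neutrophil receptor for Cxcl1 and Cxcl2, had 0, 2 and 0 counts in the controls and 0, 0, 12 and 0 in the knockouts. Neither passed the filter, and a genotype difference in either gene was not detectable at this depth. The neutrophil marker Ly6g was at 0 in all 7 libraries, and S100a8, another neutrophil marker, had 2.25 ± 0.551 (SD, n = 3) and 1.99 ± 0.707 (SD, n = 4) normalized CPM.

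Several marker sums of cells that carry these receptors were also higher in the knockouts, and others overlapped. The 14 macrophage markers, none of them at 0 throughout, summed to 443 to 498 normalized CPM in the controls and 574 to 657 in the knockouts, without overlap. Of the 14, 12 had a log2 fold change above 0 and 2 were called higher by edgeR, Cd68 and Lyz2. Csf1r had 47.7 ± 7.91 (SD, n = 3) and 66.2 ± 5.43 (SD, n = 4) normalized CPM, and Adgre1 had 11.4 ± 1.41 (SD, n = 3) and 18.98 ± 4.69 (SD, n = 4). The 7 dendritic cell markers summed to 82.2 to 116 against 123 to 152 normalized CPM, with 7 of 7 above 0 in log2 fold change and 0 called by edgeR (4 at an unadjusted p under 0.05, 1 by DESeq2). Fscn1 made up most of this sum, with means of 72.1 and 103 and overlapping libraries. Flt3, Clec9a and Cd209a had means under 1 normalized CPM and overlapped, and Batf3 (0.290 and 0.817) did not overlap. The 12 endothelial markers summed to 1320 to 1738 against 1802 to 2871 normalized CPM, with 12 of 12 above 0 and 0 called by edgeR (9 at an unadjusted p under 0.05, 5 by DESeq2). Pecam1, the endothelial adhesion molecule, had 208 ± 29.1 (SD, n = 3) and 295 ± 73.4 (SD, n = 4) normalized CPM. The 4 venous endothelial markers summed to 88.5 to 136 against 165 to 297, and 1 of them, Sele, was called higher. Selp (means of 36.4 and 104) and Sele (6.95 and 22.6) did not overlap between genotypes. Nr2f2 (26.4 and 30.5) and Ephb4 (44.5 and 49.3) did overlap, so the gap in the sum came mostly from Selp and Sele. The 11 fibroblast progenitor markers summed to 864 to 1155 against 1240 to 1497 normalized CPM, with 10 above 0 and 0 called by edgeR. Col3a1 (means of 534 and 712, without overlap) was the largest part of this sum. Dcn (206 and 287), the next largest, overlapped, and Col1a1 had a log2 fold change of -0.05. The 10 neutrophil markers summed to 10.3 to 11.7 against 13.99 to 16.5 normalized CPM. Of the neutrophil list, Mmp9 had 4.80 to 7.71 against 9.83 to 11.6 normalized CPM, whereas S100a8 and Elane had log2 fold changes of -0.18 and -0.69. The 4 monocyte markers overlapped between genotypes, with sums of 6.97 to 9.12 against 7.32 to 13.1 normalized CPM and a median log2 fold change of 0.04 over the 2 that were tested. The T cell and B cell sums also overlapped, with medians of -0.05 and -0.35.

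Receptor levels were also set against the summed markers of each library, as a description chosen after seeing the data. Per 1000 normalized CPM of macrophage markers, Ccr1 had 1.93, 2.11 and 1.29 in the controls and 3.29, 2.86, 5.26 and 3.51 in the knockouts. Ccr2 had 1.81, 3.06 and 2.70 against 4.30, 5.71, 3.56 and 7.02 on this scale. The macrophage sum includes Mertk, whose mean was lower in the knockouts. Ccr1 and Ccr2 stayed apart between genotypes relative to macrophage markers, at 2.10 and 2.04 times the control mean. Both also stayed apart relative to dendritic cell, endothelial and fibroblast progenitor markers. Relative to venous endothelial and erythroid markers Ccr1 overlapped between genotypes, and Ccr2 did not.
Ccrl2 had 16.4, 14.9 and 10.5 per 1000 normalized CPM of macrophage markers in the controls and 17.2, 21.996, 23.3 and 15.4 in the knockouts. Here the genotypes overlapped, and the knockout mean was 1.40 times that of the controls. Relative to 1000 normalized CPM of endothelial markers, Ackr3 had 15.2, 14.8 and 16.3 in the controls and 20.4, 18.3, 19.3 and 11.6 in the knockouts. Ackr3 was thus higher in knockout libraries 1 to 3 and lowest of all in knockout library 4, where endothelial markers were highest. Ackr1 relative to venous endothelial markers overlapped between genotypes, at 25.0 ± 9.07 (SD, n = 3) and 24.8 ± 4.65 (SD, n = 4) per 1000 normalized CPM. Relative to the other marker sums used it also overlapped, with knockout means from 1.11 (erythroid) to 1.41 (macrophage) times those of the controls. Cxcr4 overlapped between genotypes relative to each of the 6 marker sums used. Apart from these ratios, the part of cell makeup in the receptor values was not tested.

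**Figure D5:**
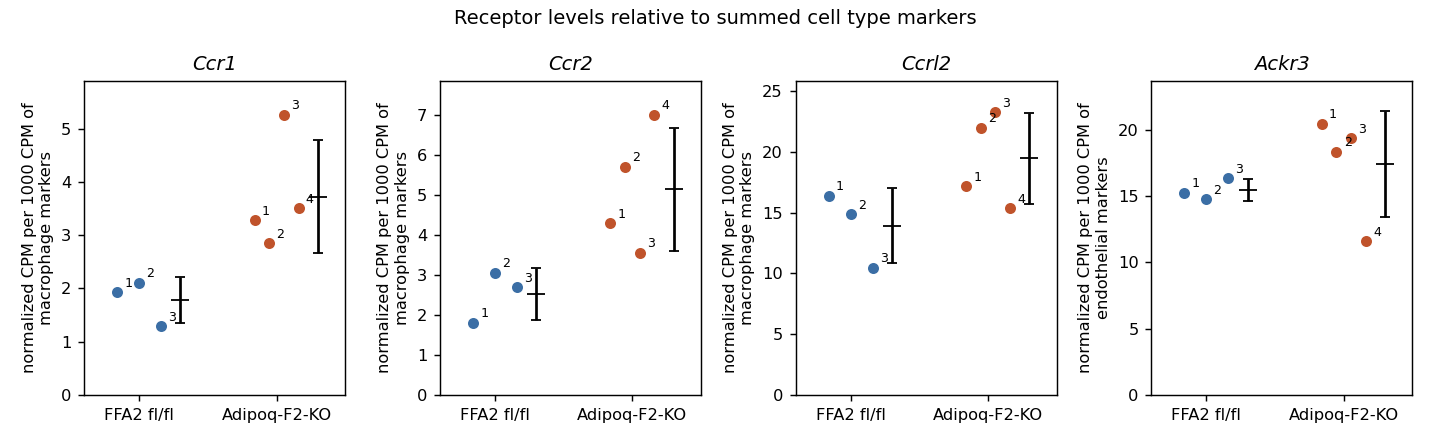
Level of Ccr1, Ccr2 and Ccrl2 per 1000 normalized CPM of summed macrophage markers and of Ackr3 per 1000 normalized CPM of summed endothelial markers, by library, with replicate numbers and the mean and SD of each genotype. Ccr1 and Ccr2 do not overlap between genotypes on this scale, and Ccrl2 and Ackr3 do.

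The 18 ligands paired with these receptors were all tested, and 15 had a log2 fold change above 0, with a median of 0.49. Ccl2 and Ccl7 were called higher by edgeR and 0 were called lower. Both bind Ccr2. Ccl2 had 167 ± 22 (SD, n = 3) and 367 ± 52.5 (SD, n = 4) normalized CPM, and Ccl7 had 38.1 ± 2.01 (SD, n = 3) and 68 ± 14.1 (SD, n = 4). On the log2 scale Ccl2 was higher by 1.14 (± 0.13, standard error, with an edgeR adjusted p of 0.0178) and Ccl7 by 0.84 (± 0.16, standard error, with an edgeR adjusted p of 0.0396). With 1 library left out, the Ccl2 call was lost without FFA2 fl/fl library 1 or 3, and the Ccl7 call held without Adipoq-F2-KO library 1 or 4 and was lost without any other. The other Ccr2 ligand of the list, Ccl12, had means of 0.432 and 0.559 normalized CPM in controls and knockouts. Among ligands of Ccr1, DESeq2 also called Ccl3 and Ccl9, with log2 fold changes of 1.95 and 0.71 from edgeR (edgeR adjusted p = 0.114 and 0.0588), while Ccl5 and Ccl6 had 0.46 and 0.31 and were called by neither tool.

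For Cxcr2, which was near 0, the ligands were abundant. Cxcl1 had 910 ± 198 (SD, n = 3) and 1183 ± 217 (SD, n = 4) normalized CPM, and Cxcl2 had 95.2 ± 30.4 (SD, n = 3) and 170 ± 21.3 (SD, n = 4). Cxcl2 did not overlap between genotypes (edgeR adjusted p = 0.0542), and Cxcl1 did (edgeR adjusted p = 0.262). Cxcl3 had a log2 fold change of 1.13 (edgeR adjusted p = 0.181), and Cxcl5 and Ppbp had means under 0.4 normalized CPM. Cxcl12, shared by Cxcr4 and Ackr3, had 111 ± 21.4 (SD, n = 3) and 158 ± 36.6 (SD, n = 4) normalized CPM, with a log2 fold change of 0.51 (edgeR adjusted p = 0.163, DESeq2 0.0472). Cxcl11, the other Ackr3 ligand, had means of 0.864 and 0.880. Cx3cl1, the membrane-bound ligand of Cx3cr1, had a log2 fold change of 0.43 (edgeR adjusted p = 0.388). Rarres2, which encodes the Ccrl2 ligand chemerin and is made by adipocytes, had 171 ± 13.4 (SD, n = 3) and 163 ± 17.2 (SD, n = 4) normalized CPM, a log2 fold change of -0.07 (± 0.10, standard error, with an edgeR adjusted p of 0.767). The Ccr7 ligands Ccl19 and Ccl21a were rare, with log2 fold changes of 0.93 and -0.45 and standard errors of 0.89 and 0.69. Ccl21a has near-identical gene copies, so its counts are uncertain.

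Of the 15 other genes of the receptor family, 5 passed the filter. Of these, edgeR and DESeq2 called 0, and 1 had an unadjusted p under 0.05 from edgeR. A log2 fold change above 0 was found for 2 of them and below 0 for 3, with a median of -0.19. The median of all tested genes was 0.00. Ackr4, an atypical receptor that removes Ccr7 ligands, had 308, 122 and 186 counts in the controls and 230, 92, 130 and 22 in the knockouts, with overlap (log2 fold change -0.78, edgeR adjusted p = 0.456).

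Downstream of the receptors, 30 genes of G proteins, receptor kinases, arrestins and effectors were tested, and 20 had a log2 fold change above 0, with a median of 0.23. Prex1, an activator of Rac that responds to G protein beta and gamma subunits, was called higher, and 0 were called lower. It had 9.32 normalized CPM in the controls and 15.6 in the knockouts, without overlap (log2 fold change 0.75, edgeR adjusted p = 0.05, just under the threshold). The Prex1 call was lost whichever library was left out. DESeq2 called 4 genes higher, Jak2, Lyn and Pik3r5 beside Prex1, against 5.03% of all genes. At an unadjusted p under 0.05 from edgeR 8 were higher, against 10.5% of genes. By the same measure 3 were lower, Gnb2, Grk6 and Ptk2b, with log2 fold changes of -0.24, -0.31 and -0.35. The libraries did not overlap for 6 genes higher, against 8.86% of tested genes, and for 5 lower. Of the arrestins, Arrb1 had a log2 fold change of -0.13, lower in the knockouts without overlap. Arrb2 had 0.10 and the inhibitory G protein subunit Gnai2 had 0.06, both with overlap. None of these last 3 was called by either tool.

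For each tested receptor the 3 genes with the closest profile over the 7 libraries were found, by the root mean square difference of centred log2 CPM, as a description. For Ccrl2 they were Itgb2, the common chain of leukocyte integrins, Adam8 and Ctss, a lysosomal protease of antigen-presenting cells, at differences of 0.113, 0.127 and 0.128. For Ccr7 they were Cxcl13, the ligand of Cxcr5, Acap1 and H2-Ob, an MHC class II accessory chain of B cells, at larger differences of 0.571, 0.670 and 0.684. Plek, a leukocyte and platelet protein, was among those of Ccr1 at 0.236, after Dnmt3b at 0.161 and A930037H05Rik at 0.230. Those of Ccr2 were Ikzf4, Zswim6 and Ifi207 at 0.158 to 0.199. Cxcr4 was closest to Csrp2, Tram2 and Mboat2 at 0.0861 to 0.102, Ackr1 to Col14a1, Mycn and Rps15a-ps6 at 0.180 to 0.185, and Ackr3 to Nfam1, Foxm1 and Ten1 at 0.0846 to 0.0911.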

How the data were processed

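Bulk RNA-Seq of mature epididymal adipocytes from 3 control (FFA2 fl/fl) and 4 knockout (Adipoq-F2-KO) mice was used, with genotypes and replicate numbers from the labels. The authors deposited raw counts per gene from featureCounts, and the submitters' processing notes also name Trimmomatic, STAR and DESeq2. Tool versions and counting options are not given in the sources used here. The labels name GRCm38, but the table's positions of 0 of the 9 receptors overlap their GRCm38 positions, so coordinates are those of the deposited table and GRCm38 served for names (52029 of 57010 identifiers) and promoter sequence alone. Between 85.5% and 88.8% of counts from 1 to 49 were even, as when both mates of a pair are counted, so the limit for 0 is 6 counts (3 pairs).

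Counts were filtered with filterByExpr, normalized by TMM and tested with edgeR 4.0.16 (glmQLFit, glmQLFTest, two-sided, genotype alone) in R 4.3.3, with Benjamini-Hochberg adjustment over 17039 genes and a threshold of 0.05. Standard errors are the log2 fold change over the root of F. Alternatives were DESeq2 1.42.0, limma voom 3.58.1, DESeq2 size factors, no filter, library sizes without mitochondrial genes and ENSMUSG00000119584, a replicate block, and leaving out each library. Mean normalized CPM was also compared by an exact permutation test, two-sided, over all 35 assignments, whose smallest p is 0.0286. P-values measure the spread between these mice. The gene calls were tested on simulated counts, in which genes varied independently and the set changes were larger than that of Ackr3. That test does not cover changes of the size of Ackr3 or shifts in cell makeup. Libraries of one genotype differed beyond sampling noise (chi-square divided by its degrees of freedom, 41.5 to 165), so none was counted as a duplicate. All receptors, the paired ligands, called genes of the lists, set marker genes and the 3 closest profiles are named. Other receptors, Ly6g, Mmp9, Elane, Pparg, Mertk and Cd163 were picked after their values were seen. The uncalled venous, dendritic cell and fibroblast progenitor markers named and the uncalled signaling genes were picked likewise. So were the marker ratios and the joint omission of 2 libraries. A further result is not reported here. Members and lists were chosen with earlier results of these data known.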

Additional observations from a re-analysis of the deposited data

Results flagged for a closer look

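In Adipoq-F2-KO library 3, Ccr7 stood apart from the other 3 knockout libraries at 4.75 normalized CPM, against 0.971 to 1.49, by Dixon's criterion for an outlying value. By the same criterion Cxcr2 stood apart in that library at 0.332 normalized CPM (12 counts), with 0 counts in the other 3. With 0 in those 3, any count in library 3 meets the criterion, so the mark of Cxcr2 carries no weight. This library was also the highest knockout library in B cell markers. For normally distributed values chance alone marks about 1 group in 20, which does not hold for Cxcr2. The 4 knockout libraries were examined for 9 receptors.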

How the results depend on the processing

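Of 98 refits of single receptors, 81 kept the direction and the side of the threshold, 6 passed it newly, 8 lost it, and 3 turned direction. All 8 losses were of Ackr3, and the turns were of Ccr7, at -0.47 and -0.19 without FFA2 fl/fl library 1 or 3 and -0.73 without Adipoq-F2-KO library 3, against 1.66 without FFA2 fl/fl library 2. The 6 new calls were of Ccrl2, Ccr1 and Ccr2. Against 173 genes called by edgeR, 992 were called by DESeq2 and 1403 with all genes of at least 1 count. The same settings called 4 and 3 receptors, 7 and 6 ligands, and 4 and 5 signaling genes. With 1 library left out in turn edgeR called 1 to 178 genes, 0 to 2 receptors, 0 to 3 ligands and 0 to 1 signaling genes, with 1 gene without FFA2 fl/fl library 1, 5 without library 3, 41 without library 2, and 11 and 20 without Adipoq-F2-KO library 2 and 3. Where edgeR called 0, 5 or 6 receptors, 5 to 8 ligands and 7 to 11 signaling genes had an unadjusted p under 0.05. Without FFA2 fl/fl library 2 and Adipoq-F2-KO library 3, chosen after seeing the data, 2 genes, 0 receptors, 0 ligands and 0 signaling genes were called by edgeR. The cause of these shifts was not tested, beyond the smaller number of samples.

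Replicate numbers are shared between genotypes, but same-numbered libraries did not deviate together across genes (correlations of 0.03, -0.02 and -0.02). Different-numbered libraries were not compared in this way, so pairing was not settled, and the main fit used genotype alone. With the replicate block edgeR called 224 genes, 0 receptors (6 at an unadjusted p under 0.05; Ackr3 had an adjusted p of 0.0754), 5 ligands and 1 signaling gene, Jak2.

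At this depth Cxcr2 and Cx3cr1 were too rare to compare, and 3 against 4 mice limit the precision for the others.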
